A study of Mus musculus with 8 samples.

Results

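The Fanconi and double-strand break repair genes are 40 genes that cells use to undo DNA crosslinks and to rejoin broken chromosomes. They were picked by gene symbol, with no measured value in the rule, though with earlier results of these data known. All 40 were found in the deposited workbook, each as 1 array feature, among 30802 genes with a symbol of their own. By role they comprised 29 genes of the Fanconi pathway and homologous recombination, 5 of end joining, 4 checkpoint kinases, and H2afx and Parp1, whose products mark or sense breaks in chromatin. Levels are log2 signals, so a difference of 1 is a doubling. A gene was tested if its mean over the 8 arrays reached 6.17, the median of all features. Of the members, 36 were tested. Brip1 (mean 6.12), Bard1 (6.08), Brca1 (6.05) and Lig4 (6.04) fell below this level and are given by their values only, while Fanci (6.18) lay just above it.

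In the Fanconi pathway a core complex of FANC proteins recognises a crosslink at a stalled replication fork and attaches ubiquitin to the FANCD2-FANCI pair, which then recruits nucleases and the BRCA proteins. Homologous recombination copies the lost sequence from the sister chromatid and therefore works after DNA has been replicated, whereas end joining seals broken ends directly at any stage of the cell cycle. Loss of Fanconi genes is known for bone marrow failure in people, and quiescent stem cells of the mouse are known to rely largely on end joining.

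The series compares hematopoietic stem cells of mice homozygous for elektra (Slfn2 elektra/elektra), a loss-of-function mutation of the Schlafen gene Slfn2, with those of wildtype littermates (Slfn2 wt/wt), both on a C57Bl/6 background and untreated. The mutation is carried in the germ line of a strain bought from a repository, so every cell of the animal has it, and the age of the mice is not given in the sources used here. Cells positive for Sca-1 and c-Kit, negative for lineage markers and CD48, positive for CD150 and high in CD9 were sorted from bone marrow. RNA of each sample, about 200 pg with 12 cycles of pre-amplification, was hybridised to 1 Affymetrix array, with 4 elektra and 4 wildtype arrays. Bones of 2 mice of one genotype went into each sample by the protocol, whereas the design text counts 4 mice of each genotype. The number of mice behind the arrays, and whether arrays share animals, is therefore unsettled. The p-values and intervals treat the arrays as independent and measure the spread between these samples.

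The sorted cells carried the transcripts of stem cells: all 14 stem cell markers examined, among them Slamf1, Procr, Kit and Ly6a, were above the level threshold, with means from 7.42 to 12.03, while Cd48 lay below it at 5.99. Of the markers of other cells, 9 of 10 B cell genes, 7 of 10 T and NK cell genes, 7 of 14 granulocyte and monocyte genes and 3 of 9 erythroid genes were below the threshold. Above it were 7 of 9 megakaryocyte and platelet genes, 7 of 10 stromal and endothelial genes and 8 of 10 multipotent progenitor genes. One array stood apart: the granulocyte and monocyte list averaged 7.03 on elektra replicate 4, against 6.05 to 6.08 on the other elektra arrays and 6.16 to 6.44 on the wildtype arrays, and the erythroid list was highest there too, at 7.19. The Slfn2 transcript itself overlapped between genotypes, at 7.79 to 8.17 in elektra and 7.22 to 8.41 in wildtype, and a mutated gene can still be transcribed, so this level does not check the labels. Xist was low on replicate 3 of each genotype (5.06 in elektra and 5.37 in wildtype) and between 10.26 and 10.79 elsewhere.

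Most repair genes lay slightly higher in elektra stem cells, by amounts that did not pass the test across all genes. The largest differences were in Fanca, Brca2, Fancm, Blm and Parp1, at 0.34 to 0.42 log2, or 1.27-fold to 1.34-fold, of which that of Fancm was 0.17 without wildtype replicate 4. Of the 36 members tested, 32 had a higher mean in elektra and 4 a lower one, whereas 53.1% of all 15710 genes tested had a higher mean. With quantile normalization of the arrays 27 of 36 members had a higher mean, beside 48.5% of all genes. The count was 26 of 36 with the spread of each array's signals as a covariate, beside 53.8%, and 26 of 36 without elektra replicate 1, beside 52.6%. Among genes with a mean level of at least 7.61, 18 of 21 members had a higher mean in elektra, beside 63.3% of all such genes. There the median difference was 0.11 for the members and 0.05 for all genes. The median log2 difference of the members was 0.15, beside 0.012 over all genes tested, with a range of -0.10 (Fancd2) to 0.42 (Fanca). The sign of 20 of the 36 was the same in every alternative setting in which the gene was tested, and that of 16 turned in at least 1.

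No member passed an adjusted p of 0.05 (limma, Benjamini-Hochberg over all 15710 genes, of which 0.0382% passed), and the smallest adjusted p among them was 0.2585, for Brca2. At an unadjusted p of 0.05, limma counted 7 members that were higher, or 19.4% of the 36, beside 7.02% of all genes, and 0 that were lower, beside 3.95% of all genes. In the authors' deposited table, which holds unadjusted p-values, 8 members were under 0.05, beside 8.18% of all features. The genotypes did not overlap for 5 members, all higher in elektra (Brca2, Fancc, Rad54l, Palb2 and Parp1), or 13.9% of those tested, beside 3.9% of all genes. In the lower direction 0 members were without overlap, beside 2.37% of all genes. The spread of each array's signals (interquartile range) was 2.67, 2.60, 2.49 and 2.62 on the elektra arrays. On the wildtype arrays it was 2.64, 2.41, 2.49 and 2.48, and the cause of these differences in spread was not tested. The count of 7 was 3 with the spread of each array's signals as a covariate, beside 4.52% of all genes that were higher. It was 11 without wildtype replicate 1, beside 8.64%, and 4 without both arrays numbered 3, beside 6.10%. Of the 7 genes, 3 remained with the covariate, 6 without wildtype replicate 1, and 2, Brca2 and Fanca, without both arrays numbered 3. These are bulk samples, in which fewer cells that transcribe a gene and less of its RNA per cell cannot be told apart.

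**Figure D1:**
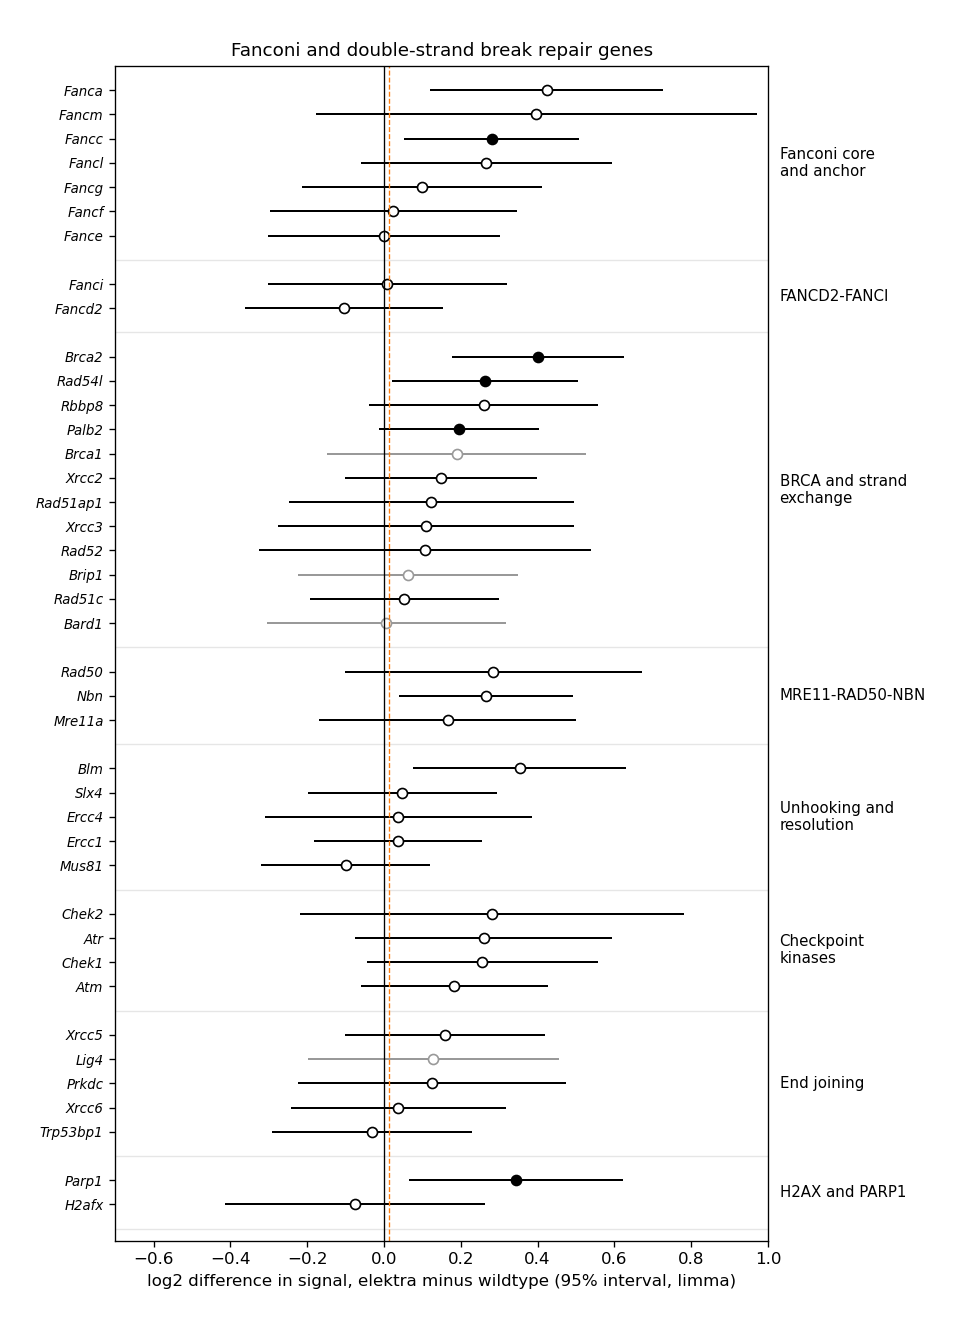
Log2 difference in signal, elektra minus wildtype, for each of the 40 genes (x axis), with its 95% interval from limma, grouped by role. Filled points have genotypes that do not overlap, grey genes lay below the level threshold, and the dashed line is the median over all genes tested (0.012); 7 intervals of tested genes lie wholly above 0 and none wholly below.

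The BRCA and strand exchange genes included the repair gene with the smallest p. Brca2, whose product is a central mediator of homologous recombination, read 8.50, 8.64, 8.59 and 8.37 on the elektra arrays, against 8.21, 8.18, 7.95 and 8.16 on the wildtype arrays, in replicate order as in all lists of 4 values here. Every elektra array lay above every wildtype array. The means were 8.52 ± 0.12 in elektra and 8.12 ± 0.12 in wildtype (SD, n = 4 each), a log2 difference of 0.40 with a 95% interval of 0.18 to 0.62 (limma adjusted p = 0.2585). It lay between 0.32 and 0.45 under the 19 alternative settings.

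Palb2, which encodes the bridge between BRCA1 and BRCA2, read 6.89, 6.88, 6.97 and 7.11 on the elektra arrays, against 6.88, 6.81, 6.68 and 6.71 on the wildtype arrays. The genotypes did not overlap, but elektra replicate 2 exceeded wildtype replicate 1 only narrowly, and the interval of the difference, 0.19, ran from -0.01 to 0.40 (adjusted p = 0.4727). Rad54l, which encodes a motor protein that drives strand exchange, read 7.01, 6.60, 6.75 and 6.64 on the elektra arrays, against 6.44, 6.56, 6.55 and 6.39 on the wildtype arrays. Elektra replicate 1 was the highest array and elektra replicates 2 and 4 lay only just above wildtype replicate 2. The difference of 0.26 (interval 0.02 to 0.50, limma adjusted p = 0.4115) was 0.18 without elektra replicate 1. Rbbp8 (CtIP), which starts the trimming of broken ends, differed by 0.26 (interval -0.04 to 0.55) with overlapping genotypes, and by 0.15 without wildtype replicate 3.

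The other tested genes of this group were nearer to no difference. The strand exchange cofactor genes Xrcc2, Xrcc3 and Rad51c were at 0.15, 0.11 and 0.05, Rad51ap1, a stimulator of strand pairing, at 0.12 and the annealing factor gene Rad52 at 0.11, each with an interval that spans 0. The sign turned for Xrcc3, Rad51c, Rad51ap1 and Rad52 when single arrays were left out, and for Rad51ap1 and Rad52 also with array spread as covariate. The mean was higher in elektra for each of the 9 tested members of the group, the median difference was 0.15, and 2 of the 9 were under an unadjusted p of 0.05. Below the level threshold, Brca1 read 6.45, 6.28, 5.86 and 5.99 on the elektra arrays, against 6.13, 6.15, 5.75 and 5.80 on the wildtype arrays. Replicates 3 and 4 were the lower arrays in both genotypes. Its partner Bard1 and the helicase gene Brip1 differed by 0.0064 and 0.06, and all 3 overlapped between genotypes.

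Within the Fanconi core, differences ran from 0.0007 for Fance to 0.42 for Fanca. Fanca, the scaffold of the core complex, read 7.73, 7.58, 7.34 and 7.28 on the elektra arrays, against 7.06, 7.31, 6.80 and 7.06 on the wildtype arrays. Elektra replicate 4, at 7.28, lay below wildtype replicate 2, at 7.31, which was the one overlap. The difference was 0.42 (interval 0.12 to 0.72; limma adjusted p = 0.3465). Fancc, another subunit of the core, read 6.75, 6.72, 6.78 and 6.71 on the elektra arrays, against 6.45, 6.68, 6.43 and 6.26 on the wildtype arrays. The elektra arrays lay within a narrow band, with an SD of 0.03 against 0.17 in wildtype, and above all wildtype arrays, for a difference of 0.28 (interval 0.06 to 0.51, adjusted p = 0.3714).

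Fancm, whose product anchors the core to the fork, had a difference almost as large as Fanca, 0.40, but a far wider interval, -0.17 to 0.97. It read 7.00, 7.20, 6.41 and 6.98 on the elektra arrays, against 7.18, 6.40, 6.61 and 5.82 on the wildtype arrays. Wildtype replicate 4 was the lowest array and wildtype replicate 1 among the highest, so the genotypes overlapped widely. The difference was 0.17 without wildtype replicate 4, 0.62 without wildtype replicate 1 and 0.028 with the array spread as a covariate. Fancl, the ubiquitin ligase subunit, was at 0.27 (interval -0.06 to 0.59), Fancg at 0.10, Fancf at 0.025 and Fance at 0.0007, the last pair with signs that turned under quantile normalization, array weights and single arrays left out. Fancl was at 0.11 with the array spread as a covariate, and Fancg at 0.017 without elektra replicate 4. All 7 core genes were tested and the median difference was 0.27, with 2 of the 7 under an unadjusted p of 0.05.

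The pair of proteins on which the core complex acts had differences near 0. Fancd2 read 6.26, 6.27, 6.55 and 6.30 on the elektra arrays, against 6.19, 6.59, 6.54 and 6.48 on the wildtype arrays, a difference of -0.10 (interval -0.36 to 0.15), and was among the 4 members with a lower mean in elektra, though its difference was 0.061 with the array spread as a covariate. Elektra replicate 3 lay among the wildtype arrays and wildtype replicate 1 was the lowest of all. Fanci read 6.40, 6.04, 6.22 and 6.08 on the elektra arrays, against 5.82, 6.44, 6.28 and 6.15 on the wildtype arrays. Wildtype replicates 1 and 2 were the lowest and highest arrays and enclosed the elektra arrays. Its difference was 0.0089 (interval -0.30 to 0.32), and its sign turned when array weights were used or when elektra replicate 1, elektra replicate 3 or wildtype replicate 1 was left out. Both genes gave dim signals, near the level threshold.

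The break sensor of MRE11, RAD50 and NBN had 3 genes with a higher mean in elektra and a median difference of 0.27. Nbn, which ties the complex to the kinase ATM, read 8.98, 8.82, 8.79 and 8.90 on the elektra arrays, against 8.83, 8.49, 8.58 and 8.54 on the wildtype arrays. Wildtype replicate 1 lay among the elektra arrays and the other wildtype arrays below all of them, for a difference of 0.27 (interval 0.04 to 0.49; limma adjusted p = 0.3867). Rad50 read 8.49, 8.70, 8.08 and 8.20 on the elektra arrays, against 8.41, 7.96, 7.72 and 8.23 on the wildtype arrays. Its difference was similar in size, 0.28, but both genotypes were spread widely and the interval ran from -0.10 to 0.67. It was 0.17 without elektra replicate 2 or without wildtype replicate 3, and 0.095 with the array spread as a covariate. Mre11a, the nuclease of the complex, was at 0.17 (interval -0.17 to 0.50), with wildtype replicate 4 the highest array of all, and lay between 0.090 and 0.32 when single arrays were left out.

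Among the genes that unhook crosslinks and resolve joined DNA, Blm had a difference of 0.35 and the others lay between -0.10 and 0.05. Blm, which encodes the Bloom helicase that separates recombined strands, read 7.82, 7.91, 8.15 and 8.09 on the elektra arrays, against 7.94, 7.50, 7.55 and 7.56 on the wildtype arrays. Wildtype replicate 1 lay among the elektra arrays, and the other wildtype arrays were below all of them. The difference was 0.35 (interval 0.08 to 0.63; limma adjusted p = 0.3626), and 0.46 without wildtype replicate 1. The nuclease genes Ercc1 and Ercc4 were at 0.04 and 0.04 and the nuclease scaffold gene Slx4 at 0.05, and the sign of all 3 turned when single arrays were left out. Mus81, the nuclease that cuts stalled forks, read 8.09, 8.25, 8.20 and 8.12 on the elektra arrays, against 8.14, 8.24, 8.21 and 8.48 on the wildtype arrays, a difference of -0.10 (interval -0.32 to 0.12). Wildtype replicate 4 was its highest array, and the other wildtype arrays lay among the elektra arrays. The difference was -0.030 without that array. The 5 genes had a median difference of 0.038, near that of all genes.

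All 4 checkpoint kinase genes had a higher mean in elektra, by 0.18 to 0.28, yet none was under an unadjusted p of 0.05. Chek1, the kinase downstream of ATR, read 7.83, 7.31, 7.49 and 7.78 on the elektra arrays, against 7.57, 7.25, 7.21 and 7.36 on the wildtype arrays, a difference of 0.26 (interval -0.04 to 0.56). Elektra replicates 1 and 4 were above all wildtype arrays and elektra replicates 2 and 3 among them. Atr read 8.37, 8.12, 8.10 and 8.09 on the elektra arrays, against 7.84, 8.21, 8.09 and 7.50 on the wildtype arrays. Wildtype replicate 2 lay among the elektra arrays and the other wildtype arrays below them. Its difference of 0.26 was 0.12 without wildtype replicate 4, the lowest array. Atm, the kinase that answers to double-strand breaks, was at 0.18 (interval -0.06 to 0.42) and its substrate kinase Chek2 at 0.28 (interval -0.22 to 0.78). Without elektra replicate 1 Chek2 was at 0.086 and Atm at 0.11, and with the array spread as a covariate Chek1 was at 0.11, Atm at 0.080 and Chek2 at -0.054. Elektra replicate 1 was the highest array for Atr, Atm, Chek1 and Chek2.

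**Figure D2:**
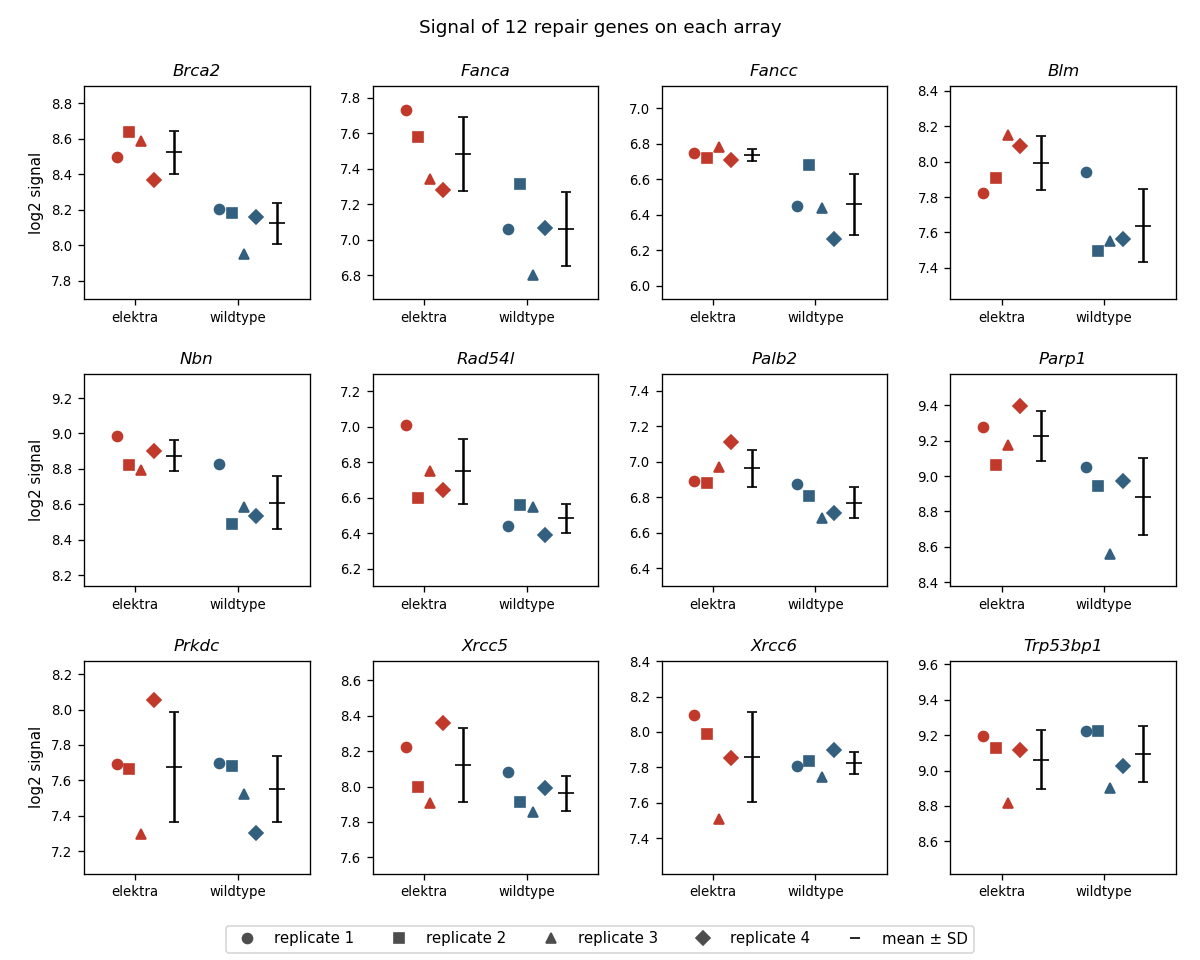
Log2 signal (y axis) of 12 repair genes on the 4 elektra and 4 wildtype arrays, with the replicate number as marker shape and mean ± SD beside each group. Each panel spans 1.2 log2 units; Brca2, Fancc, Rad54l, Palb2 and Parp1 separate the genotypes, and the end joining genes in the bottom row overlap.

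None of the end joining genes was under an unadjusted p of 0.05, and their differences ran from -0.03 to 0.16. Xrcc5, one of the Ku proteins that cap a broken end, read 8.22, 7.99, 7.91 and 8.36 on the elektra arrays, against 8.08, 7.91, 7.86 and 7.99 on the wildtype arrays, a difference of 0.16 (interval -0.10 to 0.42). Elektra replicates 1 and 4 were the highest arrays and elektra replicates 2 and 3 lay among the wildtype arrays. The difference was 0.078 without elektra replicate 4 and 0.041 with the array spread as a covariate. Xrcc6, its partner, read 8.09, 7.99, 7.51 and 7.85 on the elektra arrays, against 7.81, 7.84, 7.75 and 7.90 on the wildtype arrays. Elektra replicates ranged from 7.51 to 8.09 and enclosed all wildtype arrays, so the difference of 0.04 (interval -0.24 to 0.32) turned negative with quantile normalization, with the array spread as a covariate, or without elektra replicate 1 or 2.

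Prkdc, the kinase recruited by Ku, read 7.69, 7.67, 7.30 and 8.05 on the elektra arrays, against 7.70, 7.68, 7.52 and 7.30 on the wildtype arrays. Elektra replicate 4 was the highest array and elektra replicate 3 was nearly level with wildtype replicate 4 as the lowest, and the difference was 0.13 (interval -0.22 to 0.47), or 0.0008 without elektra replicate 4. Lig4, the ligase that completes the reaction and a gene below the level threshold, read 6.29, 6.09, 5.87 and 6.14 on the elektra arrays, against 5.96, 5.61, 6.04 and 6.28 on the wildtype arrays. Its genotypes overlapped. Trp53bp1, whose product holds back end trimming and so favours end joining, read 9.19, 9.12, 8.81 and 9.11 on the elektra arrays, against 9.22, 9.22, 8.90 and 9.03 on the wildtype arrays, a difference of -0.03 (interval -0.29 to 0.23) whose sign turned when arrays were centred on their medians or when elektra replicate 3, wildtype replicate 1 or wildtype replicate 2 was left out. Its elektra and wildtype arrays overlapped over nearly their whole range.

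Set side by side, the 26 tested genes of homologous recombination and the Fanconi pathway had a median difference of 0.14, with a higher mean in elektra for 24, and the 4 tested end joining genes one of 0.082, with a higher mean for 3. Without the level filter the order turned, with medians of 0.1234 over all 29 recombination and Fanconi genes and 0.1261 over all 5 end joining genes. Genes higher at an unadjusted p of 0.05 numbered 6 of 26, beside 7.02% of all genes. They numbered 0 of 4 for end joining, a list too short for that share to be read as a result. Whether the groups of genes differ from each other was not tested, and the intervals of the end joining genes include differences as large as the median of the recombination genes. The mean of the 26 genes was 7.60, 7.54, 7.52 and 7.55 on the elektra arrays, against 7.47, 7.39, 7.34 and 7.38 on the wildtype arrays, so no wildtype array reached an elektra array. The mean of all 36 tested members did overlap, narrowly, with elektra replicate 3 at 7.7155 and wildtype replicate 1 at 7.7194. The mean of the 4 end joining genes was 8.30, 8.19, 7.88 and 8.34 on the elektra arrays, against 8.20, 8.16, 8.01 and 8.06 on the wildtype arrays. Elektra replicate 3 was the lowest of the 8 for end joining. The recombination median was 0.21 without wildtype replicate 1, and the end joining median was 0.19 without elektra replicate 3, 0.021 without elektra replicate 4 and -0.0355 with the array spread as a covariate.

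Parp1, which senses broken DNA and decorates it with ADP-ribose chains, read 9.28, 9.06, 9.17 and 9.39 on the elektra arrays, against 9.05, 8.94, 8.56 and 8.97 on the wildtype arrays. The lowest elektra array and the highest wildtype array were nearly level, and wildtype replicate 3 was well below the rest. The difference was 0.34 (interval 0.07 to 0.62; limma adjusted p = 0.3714), and 0.24 without wildtype replicate 3. H2afx (current symbol H2ax), the histone variant phosphorylated around a break, read 10.87, 10.47, 11.07 and 10.90 on the elektra arrays, against 10.99, 10.64, 10.80 and 11.18 on the wildtype arrays. Its genotypes overlapped and the difference of -0.08 (interval -0.41 to 0.26) changed sign without elektra replicate 2 or wildtype replicate 4.

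Most cell cycle genes also had a higher mean in elektra, 20 of 21 for S phase and 18 of 18 for G2 and mitosis. At an unadjusted p of 0.05, 11 of 21 S phase genes, among them the helicase genes Mcm2, Mcm4, Mcm5, Mcm6 and Mcm7 but not Mcm3, were higher and none was lower, with a median difference of 0.29. Of the genes of G2 and mitosis 8 were higher and none was lower, with a median of 0.31. Those higher were 52.4% of the S phase list and 44.4% of the G2 and mitosis list. Among all genes 7.02% were higher and 3.95% were lower at that p. None of these cell cycle genes passed the adjusted threshold with limma. The S phase mean was 8.49, 8.41, 8.46 and 8.48 on the elektra arrays, against 8.26, 7.96, 8.11 and 8.41 on the wildtype arrays. No wildtype array reached an elektra array, but elektra replicate 2 (8.4104) and wildtype replicate 4 (8.4062) were nearly level. For G2 and mitosis the mean was 7.96, 7.43, 7.65 and 7.57 on the elektra arrays, against 7.39, 6.96, 7.33 and 7.53 on the wildtype arrays, with overlap. Elektra replicate 1 had the highest mean for both lists and for the 26 recombination genes. Wildtype replicate 2 had the lowest cell cycle means, whereas wildtype replicate 3 had the lowest recombination mean. The 10 multipotent progenitor markers averaged 7.32 to 7.52 on the elektra arrays and 6.95 to 7.24 on the wildtype arrays. The 9 megakaryocyte and platelet genes averaged 8.03 to 8.16 on the elektra arrays and 7.81 to 8.02 on the wildtype arrays, without overlap but nearly level at the closest arrays. Of these genes Selp (0.63), Pf4 (0.61) and Itga2b (0.39) were higher and separated the genotypes. Treml1 was lower, at -0.37 with overlapping genotypes, as was Gp1ba at -0.0955. Vwf, Gp1bb, Ppbp and Gp9 lay between 0.014 and 0.11. Of the 14 stem cell markers 6 had a higher mean in elektra and 8 a lower one, with a median difference of -0.093. Of the 7 tested stromal and endothelial genes 2 had a higher mean and 5 a lower one, with a median of -0.21. The part of cell cycle, progenitor or megakaryocyte genes in the repair gene differences was not tested. Without elektra replicate 4, the array with more granulocyte and monocyte transcript, the recombination median was 0.15 and 5 members were under an unadjusted p of 0.05.

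**Figure D3:**
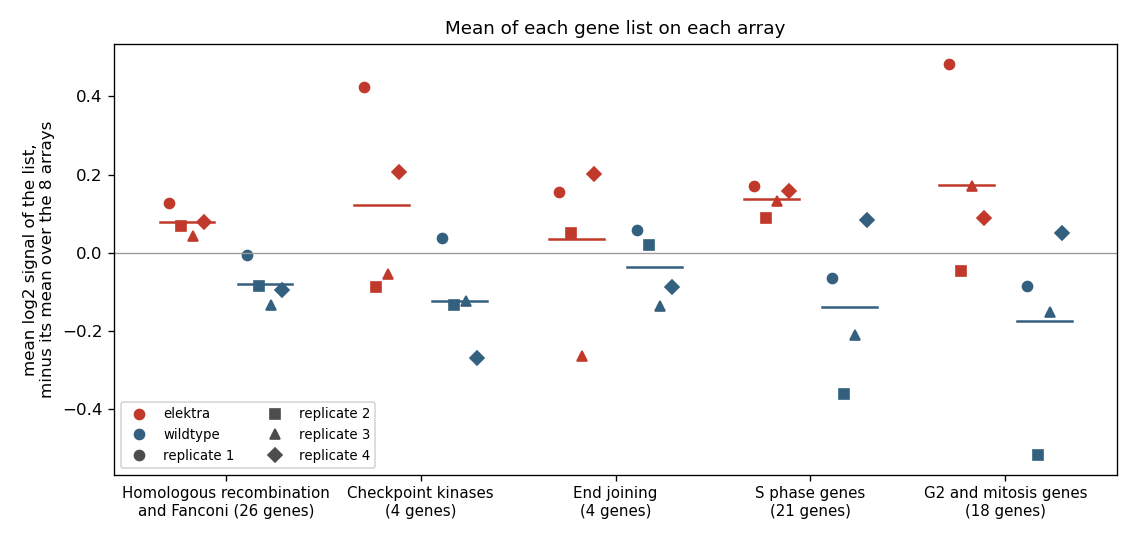
Mean log2 signal of each gene list on each array, minus the list's mean over the 8 arrays (y axis), for elektra and wildtype arrays, with the replicate number as marker shape and bars at group means. The recombination and Fanconi means of the 4 elektra arrays sit above those of the 4 wildtype arrays, and so, narrowly, do the S phase means. The end joining, checkpoint kinase and G2 and mitosis means overlap.

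Repair genes outside the 40 gave a mixed picture. Of 81 further genes of these pathways, 78 were measured and 74 tested, with a median difference of 0.064. The mean was higher in elektra for 47 of the 74, or 63.5%, beside 53.1% of all genes. Genotypes did not overlap for 1 that was higher (1.35%) and 2 that were lower, beside 3.9% and 2.37% of all genes. By unadjusted p under 0.05, 8 were higher (10.8%) and 2 were lower, beside 7.02% and 3.95% of all genes, and 0 passed the adjusted threshold. Among further homologous recombination genes were Dna2, a nuclease and helicase of end trimming, at 0.46 with genotypes that did not overlap, and Rpa3 at 0.37 and Rpa2 at 0.31, which coat single-stranded DNA. They were among the 4 genes under an unadjusted p of 0.05 of 27 tested in that list, all higher. The mean of those 27 genes overlapped, at 7.86 to 8.04 on the elektra arrays and 7.78 to 7.97 on the wildtype arrays. The mean of all 74 tested overlapped too, at 7.97 to 8.13 in elektra and 7.87 to 8.04 in wildtype. Of 11 further Fanconi genes 1 was higher, the translesion polymerase gene Rev1 at 0.23, followed by Rad18 at 0.19 and Ube2t, the ubiquitin-conjugating partner of FANCL, at 0.17. The 15 further end joining genes had 0 in either direction, with Nhej1 at 0.21 and Aptx at 0.20 the genes of smallest p.

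Break signalling genes went both ways. Of 22 tested, 3 were higher at an unadjusted p of 0.05 and 2 were lower, beside 7.02% and 3.95% of all genes. Rad17, the clamp loader of the ATR pathway, was at 0.39 and Tipin, a fork protection gene, at 0.39. Rad9a, a subunit of the clamp that RAD17 loads, was lower, at 9.15 in elektra and 9.51 in wildtype, a difference of -0.37. Tonsl, which reads newly replicated chromatin, was at -0.28. Neither lower gene overlapped between genotypes.

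Promoters of these genes were examined since many repair genes are known targets of E2F factors, which act at the start of S phase. RefSeq windows of the 250 bases before the gene start, on assembly GRCm38.p6, were found for 33 of the 40 genes. The E2F words searched on both strands were TTTCCCGC, TTTCGCGC, TTTGCCGC and TTTGGCGC, and 5 of 33 genes held one (Brca2, Fancg, Chek2, Bard1 and Xrcc6), or 15.2%, beside 2.16% of 27025 genes. The word CCAAT, the core of the CCAAT box, was in 17 of 33 or 51.5%, beside 37.5% of all genes. The words TTTGAA and TTCGAA of the cell cycle homology region were in 2 of 33, Atr and Bard1, or 6.06%, beside 19.6%. The searched words do not overlap one another in the windows printed. A match is a description of the letters and not a measured site. Windows are shown for Brca2, the gene of smallest p and one with an E2F word, for Fanca, with the largest difference and no E2F word, and for Xrcc6, an end joining gene with an E2F word and a difference of 0.04. They are written 5′ to 3′ on the gene's strand, with E2F and CCAAT words in capitals.
Brca2 (chr5:150522371-150522620, plus strand): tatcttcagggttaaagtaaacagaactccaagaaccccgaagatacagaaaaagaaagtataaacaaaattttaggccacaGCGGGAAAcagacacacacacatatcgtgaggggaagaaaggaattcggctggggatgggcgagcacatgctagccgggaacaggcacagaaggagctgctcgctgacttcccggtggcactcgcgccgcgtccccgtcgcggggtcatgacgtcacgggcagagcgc
Fanca (chr8:123318577-123318826, minus strand): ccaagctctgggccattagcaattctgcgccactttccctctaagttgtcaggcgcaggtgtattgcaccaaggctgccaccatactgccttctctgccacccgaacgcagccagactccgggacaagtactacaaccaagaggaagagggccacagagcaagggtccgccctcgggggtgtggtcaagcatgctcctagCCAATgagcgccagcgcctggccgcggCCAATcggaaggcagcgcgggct
Xrcc6 (chr15:82016119-82016368, plus strand): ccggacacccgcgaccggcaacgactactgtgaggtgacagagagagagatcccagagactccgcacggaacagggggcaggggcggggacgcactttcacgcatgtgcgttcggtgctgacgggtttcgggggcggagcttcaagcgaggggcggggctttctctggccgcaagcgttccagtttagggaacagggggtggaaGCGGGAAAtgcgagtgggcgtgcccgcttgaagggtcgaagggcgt
The same E2F word, GCGGGAAA as read on the gene's strand, thus stood before a recombination gene that separated the genotypes and before an end joining gene that did not, while Fanca held 2 CCAAT words.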

How the data were processed

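Total RNA of sorted hematopoietic stem cells was measured on 8 Affymetrix arrays, 4 elektra and 4 wildtype, grouped by sample title. The authors' log2 signals were made with RMA in Affymetrix Expression Console 1.4, per the submitters' processing notes. RMA subtracts background, quantile-normalizes the arrays and summarises probes. No source used here gives the array design or annotation release. The deposited workbook lists 33793 features, of which 32074 carry 1 gene symbol, with the authors' unadjusted p-value, which equals an equal-variance t-test on the 4 and 4 log2 signals to within 2.0e-12, and a deposited signed fold change, treated as a score and not used. The series value table holds 41345 features and differs from the workbook by at most 0.16 log2.

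Features with 1 symbol and a mean at or above 6.17 log2 were kept, the feature of highest mean for each symbol, which left 15710 genes. Differences, elektra minus wildtype, were tested with limma (version 3.58.1, functions lmFit and eBayes, R 4.3.3) without covariates, and the two-sided p-values received Benjamini-Hochberg adjustment across these genes. The procedure was tested on simulated data. Intervals are 95% limma intervals. The number of arrays limits the precision. Members and gene lists were chosen with earlier results of these data known. Every member is reported; members under an unadjusted p of 0.05 or without overlap, the 2 of smallest p in each role and all end joining genes are given array by array, and Brca1 and Fancm, given so too, were added after their values were seen. From the lists of further genes up to 4 of smallest p were named, and 1 that the rule would name is not reported here. Of the gene symbols in those lists, 8 were matched to the array's older symbols through the RefSeq gene table of GRCm38.p6. Alternatives were other level filters, normalizations, limma settings, the array spread (interquartile range) as a covariate, the series value table, replicate number as a block and each array left out.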

Additional observations from a re-analysis of the deposited data

Results flagged for a closer look

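In 6 of the 80 groups of 4 arrays (40 genes, each in both genotypes), 1 array lay far from the other 3 by Dixon's criterion, which chance meets in about 1 of 20 groups. Blm was high on wildtype replicate 1, at 7.94 against 7.50, 7.55 and 7.56 on the other wildtype arrays, and Chek2 on the same array, at 7.08 against 6.47, 6.49 and 6.57. Atr was high on elektra replicate 1, at 8.37 against 8.09, 8.10 and 8.12, and Mre11a on the same array, at 8.26 against 7.99, 7.99 and 8.02. Fancd2 was high on elektra replicate 3, at 6.55 against 6.26, 6.27 and 6.30. Xrcc2 was low on wildtype replicate 3, at 5.93 against 6.22, 6.24 and 6.26.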

How the results depend on the processing

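Limma passed 0 members at the adjusted threshold under each of the 19 alternatives, with 3 to 11 members at an unadjusted p of 0.05. That count was 4 of 21 tested with the stricter level filter, which tests fewer genes, 3 with the array spread as a covariate, 4 without the arrays numbered 3, and 5 to 11 when each array was left out. The median difference of the recombination and Fanconi members was 0.18 with median-centred arrays and 0.11 to 0.21 with each array left out. The end joining median was -0.0355 with the array spread as a covariate, and the cause was not tested. Signs turned for genes of small difference: Xrcc6 was at -0.011 with quantile normalization, -0.065 with the array spread as a covariate and -0.040 to 0.15 with each array left out, Trp53bp1 at 0.017 with median-centred arrays and -0.095 to 0.051 with each array left out, Fanci at -0.028 with array weights and -0.11 to 0.097 with each array left out, and H2afx at -0.16 to 0.045 with each array left out. With the array spread as a covariate Fancd2 was at 0.061, Prkdc at -0.0059, Chek2 at -0.0536, Ercc1 at -0.003, Fance at -0.0009, Rad51ap1 at -0.0522 and Rad52 at -0.1588. With quantile normalization Ercc1 was at -0.0169, Ercc4 at -0.0141, Fance at -0.052 and Fancf at -0.0291. With array weights Fance was at -0.0069 and Fancf at -0.0075, and without both arrays numbered 3 Fancf was at -0.0133. With each array left out, the ranges that crossed 0 were -0.0046 to 0.086 for Ercc1, -0.0505 to 0.1896 for Ercc4, -0.1017 to 0.0905 for Fance, -0.1066 to 0.1022 for Fancf, -0.0114 to 0.2114 for Rad51ap1, -0.0214 to 0.1304 for Rad51c, -0.025 to 0.2674 for Rad52, -0.0104 to 0.1123 for Slx4 and -0.0015 to 0.2514 for Xrcc3.

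The replicate numbers share no stated origin. Same-numbered arrays correlated at 0.14, 0.024, 0.13 and -0.0017 in their deviations from the group means, so the numbers were not taken as pairs, and 2 of the 4 elektra arrays correlated best with the wildtype array of their own number. With the replicate block 9 members were under an unadjusted p of 0.05 and 0 passed the adjusted threshold. Dim genes such as Fanci lie near the level threshold.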

Other observations

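Genes induced by p53, the transcription factor that answers to DNA damage, were examined in the same arrays. Of 15, 12 were tested and 10 had a higher mean in elektra. By unadjusted p under 0.05, 2 were higher and 1 was lower, beside 7.02% and 3.95% of all genes, and the median difference was 0.12. Bax, a promoter of cell death, was at 9.86 ± 0.03 in elektra and 9.58 ± 0.03 in wildtype (SD, n = 4 each) with genotypes that did not overlap, and Gtse1, a gene of G2 that is also induced by p53, at 7.56 ± 0.32 in elektra and 7.00 ± 0.06 in wildtype, also without overlap. Plk2, a polo-like kinase gene, was lower, at 8.19 ± 0.38 in elektra and 8.85 ± 0.43 in wildtype. Cdkn1a, the cell cycle inhibitor, had a difference of 0.27 (adjusted p = 0.522 with limma), and Mdm2, the p53 antagonist, at 8.14 in both. None of the 12 passed the adjusted threshold with limma.

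Of the 36 tested members, elektra replicate 1 held the highest signal for 12 and wildtype replicate 3 the lowest for 13.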
